A study of Homo sapiens with 16 samples.

Results

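Antibody light chains and their surrogates were followed through 9 genes, taken as every row of the count files whose gene symbol was IGKC, IGLC1, IGLC2, IGLC3, IGLC7, IGLL1, IGLL5, VPREB1 or VPREB3. These are 9 of the 62714 genes listed per library. The RNA-seq libraries came from pools of 4 established human B-cell lymphoma lines in which CREBBP, a histone acetyltransferase gene, or the AAVS integration site as control had been cut with Cas9 and 4 guides per target, delivered by the lentiviral vector pLENTI-CRISPRv2. Each pool was sequenced once at baseline and once after 4 h with IL4 at 10 ng/ml, which gives 4 libraries for each of AAVS baseline, CREBBP baseline, AAVS IL4 and CREBBP IL4, with the line as replicate. All pools, controls included, carry Cas9 and guides, and none is a clone. SU-DHL4 is line 1 and DOHH2 line 4. The labels contradict each other on which of lines 2 and 3 is OCI-LY7 and which SU-DHL10, so both are named by number. Each line gave 1 library per condition, and p-values therefore measure the spread between lines.

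A B cell joins 1 variable and 1 joining segment to a constant gene and makes either kappa or lambda light chains, so a clonal lymphoma usually holds 1 rearranged light chain. IGKC encodes the kappa constant region, and IGLC1, IGLC2, IGLC3 and IGLC7 encode lambda constant regions that are used with different joining segments. Precursor B cells pair the heavy chain with a surrogate light chain made of the VPREB1 and IGLL1 products before a light chain gene is assembled. VPREB3 is related to VPREB1 and stays on in germinal centre B cells, from which these lymphomas derive, and IGLL5 is an IGLL1-like gene whose last exon is shared with the lambda constant 1 segment.

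On GRCh38 with GENCODE 44 annotation, IGKC (ENSG00000211592) lies at chr2:88857161-88857683 on the minus strand. The other 8 genes lie on chromosome 22, with VPREB1 at chr22:22244780-22245515, IGLL5 at chr22:22887780-22896111, IGLC1 at chr22:22895375-22895834, IGLC2 at chr22:22900976-22901437, IGLC3 at chr22:22906342-22906803 and IGLC7 at chr22:22922594-22923034 on the plus strand. IGLL1 at chr22:23573125-23580302 and VPREB3 at chr22:23752743-23754425 are on the minus strand. The 460 exon bases of IGLC1 fall wholly inside IGLL5 on the same strand and form 34.4% of its exon length, so the counts of this pair depend on how reads were divided between them. The constant coding exon, 317 bases long in each lambda gene, is identical in IGLC1 and IGLL5 (100%), differs at 3 bases between IGLC2 and IGLC3 (99.1% identity), at 13 between IGLC2 and IGLC7 (95.9%) and at 20 between IGLC1 and IGLC7 (93.7%). Of the 167 windows of 151 bases, the read length, that fit in this exon, IGLC2 and IGLC3 share 23 (13.8%), whereas IGLC1 and IGLC7 share 0 with any of the other 3 IGLC genes. Of the 243 windows of 75 bases in this exon, IGLC2 and IGLC3 share 99, IGLC1 shares 16 with IGLC2, and IGLC7 shares 12 with IGLC3. The following 90 bases of that exon are shown because IGLC1 and IGLC7 differ there from IGLC2, with capitals at the bases that differ.
IGLC1 (chr22:22895454-22895543, + strand): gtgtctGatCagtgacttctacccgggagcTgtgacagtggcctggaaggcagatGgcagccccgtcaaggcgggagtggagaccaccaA
IGLC2 (chr22:22901055-22901144, + strand): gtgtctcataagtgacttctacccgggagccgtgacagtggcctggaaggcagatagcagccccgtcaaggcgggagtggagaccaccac
IGLC3 (chr22:22906421-22906510, + strand): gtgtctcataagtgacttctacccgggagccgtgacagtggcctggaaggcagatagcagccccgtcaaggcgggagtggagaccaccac
IGLC7 (chr22:22922673-22922762, + strand): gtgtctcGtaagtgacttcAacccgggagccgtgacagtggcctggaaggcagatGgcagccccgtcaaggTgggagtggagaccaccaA
IGLC1 and IGLC7 each differ from IGLC2 at 5 of these 90 bases, and IGLC3 at 0. Levels of IGLC2 against IGLC3, and of IGLC1 against IGLL5, are therefore uncertain, while IGLC7 can be told from the others by reads that span such bases.

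Total counts ranged from 19649735 to 61981976 per library, and the AAVS IL4 libraries, with a median of 29790813, were the least deeply sequenced group. The RNA of the targeted gene did not separate the pools at baseline. CREBBP was at 269, 205, 360 and 246 CPM (counts per 1000000 counts of the library) in lines 1 to 4 of the AAVS pools at baseline and at 278, 191, 187 and 270 CPM in the CREBBP pools. With IL4 it was at 315, 190, 315 and 379 CPM in the AAVS pools and lower in every line of the CREBBP pools, at 214, 69.9, 245 and 218 CPM. The log2 fold change between pools was -0.11 at baseline (edgeR adjusted p = 0.851) and -0.51 with IL4 (adjusted p = 0.218). These values are RNA, and the paper reports loss of the CREBBP protein in the targeted pools by immunoblotting. The AAVS IL4 libraries stood apart from the other 12 in genes that are not light chains. IGHM, the mu heavy chain constant gene, was at 951, 711, 1711 and 138 CPM in lines 1 to 4 with IL4 in AAVS pools and at no more than 0.0696 CPM elsewhere. The summed level of 8 markers of B cells outside the germinal centre was 558 to 3687 CPM there and 56.0 to 298 CPM in the other 12, with 6 of 8 genes above all 12. The summed level of 11 T-cell markers was 103, 72.3, 201 and 34.0 CPM against 2.34 to 38.5, with 10 of 11 genes above all 12, and CD2 was at 0 in the 12. Of all genes with a count, 3.61% lay above the other 12 libraries in this way. Myeloid markers summed to 7.40 to 24.8 CPM against 1.07 to 13.5 (1 of 8 above), NK-cell markers to 3.12 to 17.0 against 0 to 0.907 (2 of 5) and stromal markers to 3.09 to 38.8 against 0.149 to 39.7 (1 of 6). The 7 general B-cell markers, which fit the labelled cell type, were expressed throughout at 2698 to 4799 CPM in AAVS IL4 and 2843 to 5395 CPM elsewhere, and the 5 germinal centre markers at 707 to 1216 and 464 to 1604 CPM. Whether these transcripts have a part in the light chain results was not tested. In bulk RNA, fewer cells of a type and less RNA per cell cannot be told apart.

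Lines 1, 3 and 4 carried mostly kappa and line 2 mostly lambda transcripts. IGKC was at 745, 0.858, 703 and 454 CPM in lines 1 to 4 at baseline in AAVS pools, and at 1035, 0.925, 1058 and 518 CPM in CREBBP pools. Line 2 was thus far below every other line. IGLC2 had the opposite order, at 2.35, 310, 4.17 and 1.15 CPM in AAVS pools and 7.34, 217, 10.3 and 0.945 CPM in CREBBP pools at baseline. The remaining lambda genes did not follow IGLC2. IGLC1 was at 12.1, 0.662, 20.3 and 4.28 CPM and IGLL5 at 50.0, 1.35, 51.4 and 35.4 CPM in the AAVS pools at baseline, both lowest in line 2, the line with most lambda transcripts. Compared per length in line 1 of AAVS baseline, IGKC reached 1424 CPM per kilobase of exon, VPREB3 201, IGLL5 37.3, IGLC1 26.3, IGLC2 5.09 and IGLC3 2.85. In line 2 of the same group IGLC2 reached 670 CPM per kilobase, VPREB3 149 and IGKC 1.64.

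**Figure D1:**
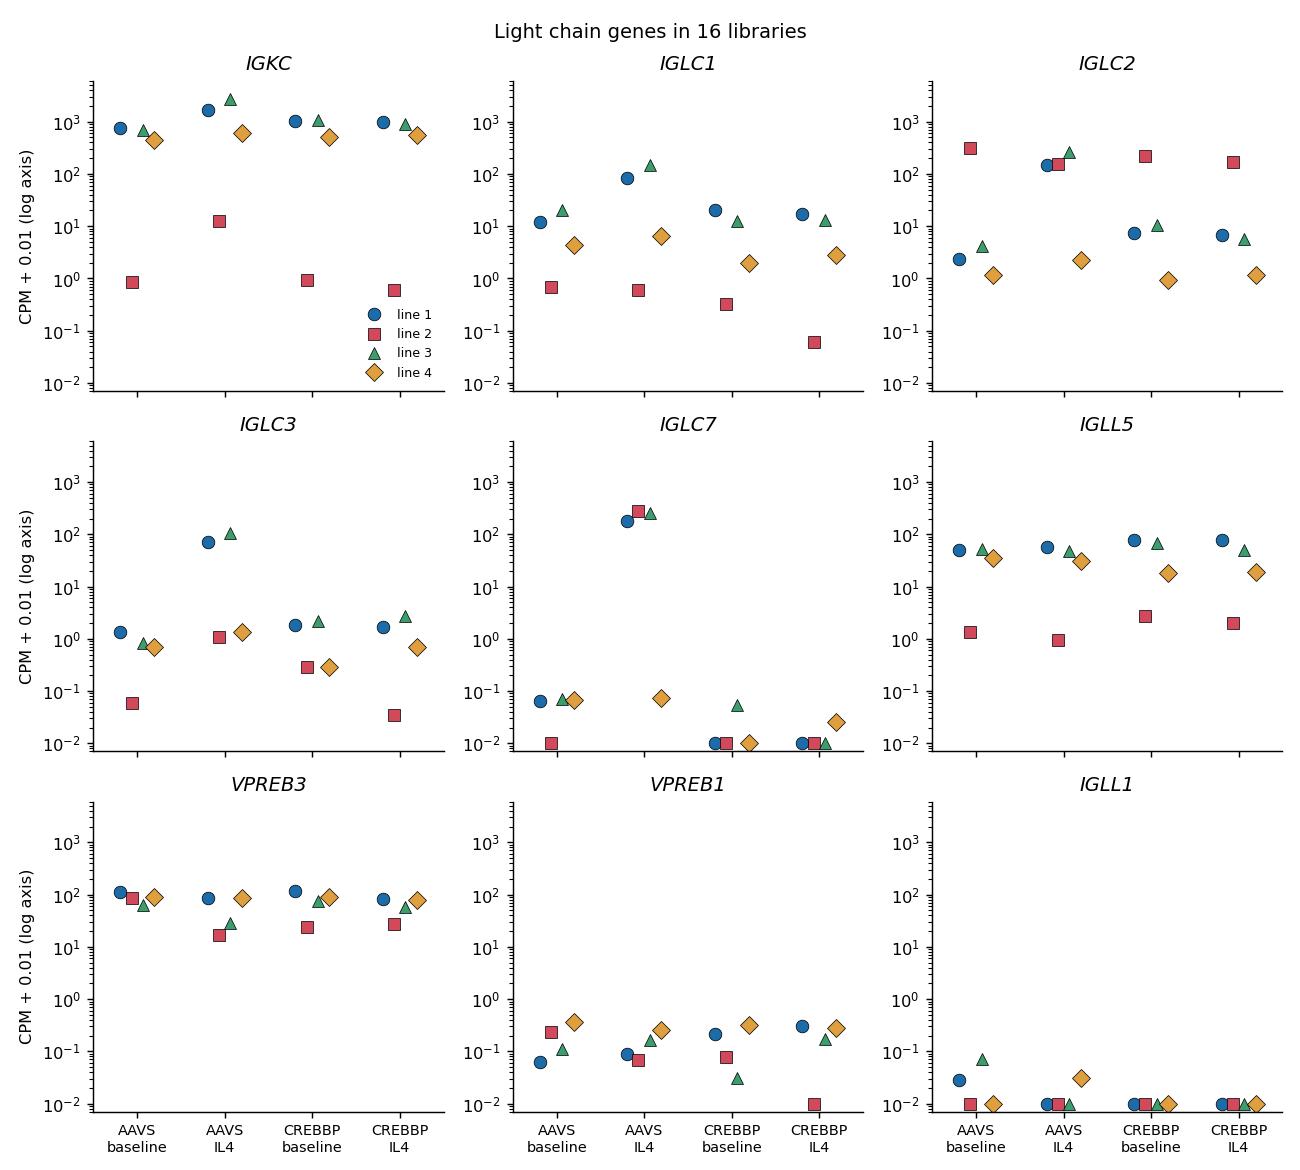
Level of each of the 9 light chain genes in the 16 libraries, as CPM + 0.01 on a log axis, by group, with 1 point per line and no averaging. IGKC is lowest and IGLC2 mostly highest in line 2, and IGLC7 stands above 100 CPM only in lines 1 to 3 of AAVS IL4, where IGLC3 of lines 1 and 3 is also raised.

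The kappa share, the IGKC count as a percentage of the counts of IGKC, the 4 IGLC genes and IGLL5, made this contrast between lines explicit. It was 91.9%, 0.275%, 90.2% and 91.6% in lines 1 to 4 of AAVS baseline, with 95% Wilson intervals of 91.6 to 92.1, 0.198 to 0.381, 89.8 to 90.4 and 91.3 to 91.9, which cover counting error only. In the CREBBP pools it was 90.7%, 0.418%, 91.9% and 96.1% at baseline and 90.7%, 0.354%, 92.6% and 95.9% with IL4. The AAVS IL4 libraries differed, at 76.2%, 2.84%, 76.7% and 93.7%. The share fell by 15.7 and 13.5 percentage points in lines 1 and 3 and was higher by 2.57 and 2.07 points in lines 2 and 4 (mean difference -6.14 ± 9.81 points, SD, n = 4, exact two-sided sign-flip permutation test p = 0.5). The direction in line 4 depended on IGLL5. With IGLL5 left out of the denominator, the share in lines 1 to 4 of the AAVS pools was 97.9%, 0.276%, 96.5% and 98.7% at baseline and 78.2%, 2.85%, 77.7% and 98.4% with IL4, so that it was lower in 3 of 4 lines (mean difference -9.06 points). For IL4 in CREBBP pools the mean difference was 0.121 ± 0.418 points (SD, n = 4, exact p = 1), for CREBBP against AAVS pools at baseline 1.30 ± 2.46 points (SD, n = 4, exact p = 0.375) and with IL4 7.56 ± 9.09 points (SD, n = 4, exact p = 0.375). With 4 lines this test cannot give a p below 0.125. Without IGLL5, the share in lines 1 to 4 of CREBBP baseline was 97.2%, 0.423%, 97.7% and 99.4%. The baseline difference between pools in line 4 was therefore smaller without IGLL5 than with it.

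The lambda transcripts were made up differently in the kappa and the lambda line. In the 9 libraries of lines 1, 3 and 4 outside AAVS IL4, IGLC1 and IGLL5 together gave 86.6% to 95.4% of the lambda counts, and the lambda genes summed to 20.9 to 106 CPM. In the 3 libraries of line 2 outside AAVS IL4, IGLC2 alone gave 98.5% to 99.3%. The AAVS IL4 libraries of lines 1 to 3 had another composition, in which IGLC7 gave 33.4%, 63.3% and 31.7% of the lambda counts and IGLC2 27.4%, 36.1% and 31.7%. Line 4 kept to the pattern of the other kappa libraries, with 91.1% from IGLC1 and IGLL5 and 0.152% from IGLC7.

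**Figure D2:**
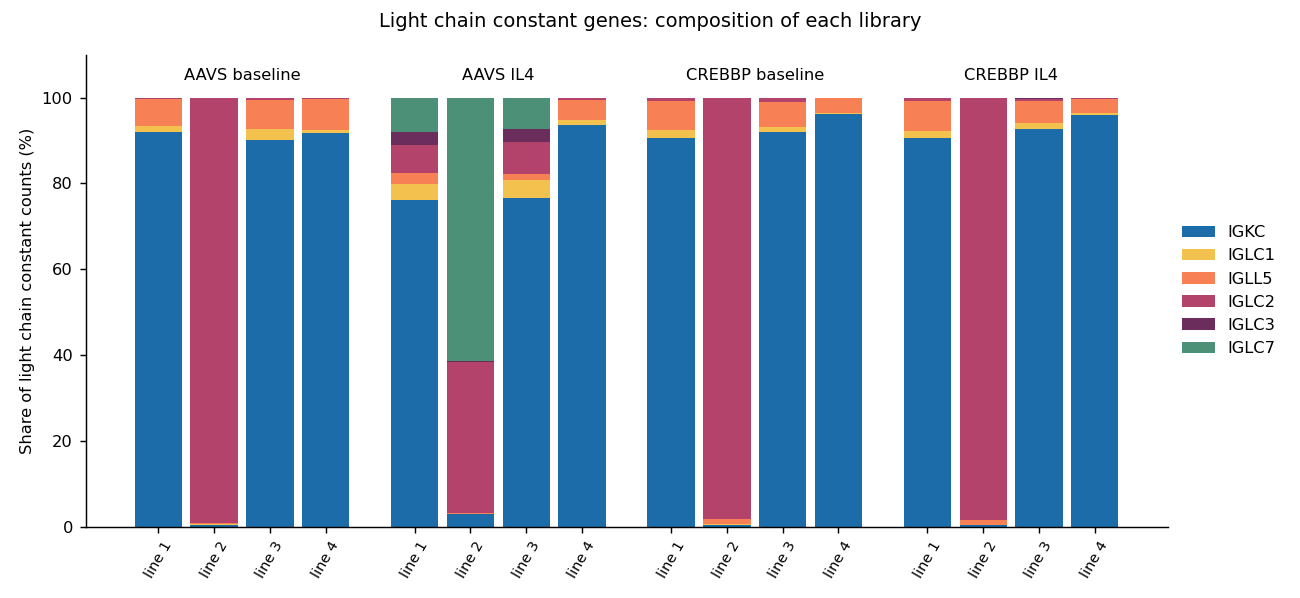
Composition of the light chain constant counts of each library, as stacked percentages of IGKC, IGLC1, IGLL5, IGLC2, IGLC3 and IGLC7 counts, with 1 bar per library. Line 2 is filled by IGLC2 outside AAVS IL4, and the IGLC7 segment is visible only in lines 1 to 3 of AAVS IL4.

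IGLC7 had the sharpest contrast between libraries. Its counts were 3, 0, 3 and 3 in lines 1 to 4 of AAVS baseline and 4557, 9358, 5103 and 3 in AAVS IL4. They were 0, 0, 2 and 0 in CREBBP baseline and 0, 0, 0 and 1 in CREBBP IL4. In CPM, AAVS IL4 held 178, 276, 260 and 0.0629, so that 3 lines were high and line 4 was not. Relative to baseline, line 1 was 3324-fold higher (95% exact interval 1137 to 16126, counting error only) and line 3 4218-fold (1442 to 20459). Line 2, with 0 counts at baseline, was at least 3748-fold higher when the baseline library was set to a floor of 3 counts. The low-count filter, which asks for a sufficient level in 4 libraries, left IGLC7 out of every main test. Without that filter, edgeR's quasi-likelihood test with Benjamini-Hochberg adjustment gave an adjusted p of 1.16e-06 for IL4 in AAVS pools (1851 of 38148 genes called). It gave 1.35e-17 for CREBBP against AAVS pools with IL4 (3466 of 37104 called). The difference in IL4 response had an adjusted p of 1.02e-05 without the filter (1191 of 39680 called). Line 4 held at most 3 counts in every group, so these values do not represent all lines. Because IGLC7 was near 0 outside AAVS IL4, the tests rest on the group where it is high and add no support to the counts.

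Counts of variable segments, of which a rearranged light chain holds 1, changed along with IGLC7. In line 2 outside AAVS IL4, IGLV2-23 alone gave 95.1% to 98.2% of the counts of all IGLV segments, with 3632 counts in AAVS baseline, 1978 in CREBBP baseline and 2134 in CREBBP IL4, and it was at 0 in the 9 libraries of lines 1, 3 and 4 outside AAVS IL4. In AAVS IL4 it was at 498, 1740, 517 and 8 counts. IGLV1-40 led in lines 1 to 3 of that group, with 4052, 7624 and 6236 counts (35.0%, 80.3% and 38.6% of IGLV counts), against 24 in line 4 and 0 to 12 in the other 12 libraries. For each 100 IGLV1-40 counts there were 112, 123 and 81.8 IGLC7 counts in lines 1 to 3.

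The kappa line libraries showed a similar shift in IGKV segments. IGKV2-29 led the IGKV counts of lines 1, 3 and 4 in AAVS baseline and in both CREBBP groups, with 28.5% to 47.4% of them, and it was at 0 in each library of line 2. In AAVS IL4 it still led in line 4, with 506 counts (30.2%). IGKV1-33 led in line 1 with 2638 counts (18.2%) and IGKV4-1 in line 3 with 2503 (16.5%). The ratio of variable to constant counts moved as well. Per 100 IGKC counts, lines 1, 3 and 4 held 1.10 to 4.12 IGKV counts outside AAVS IL4, and 33.1, 28.8 and 5.73 in AAVS IL4. Per 100 lambda constant counts, they held 8.78 to 28.3 IGLV counts outside that group and 84.7, 100.5 and 31.6 within it. These variable segment values are levels without a test, and near-identical V segments can share reads. In lines 1, 3 and 4 outside AAVS IL4, 12 to 22 IGKV segments each gave more than 1% of the IGKV counts. Whether a leading segment is the one rearranged in its line was not tested.

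**Figure D3:**
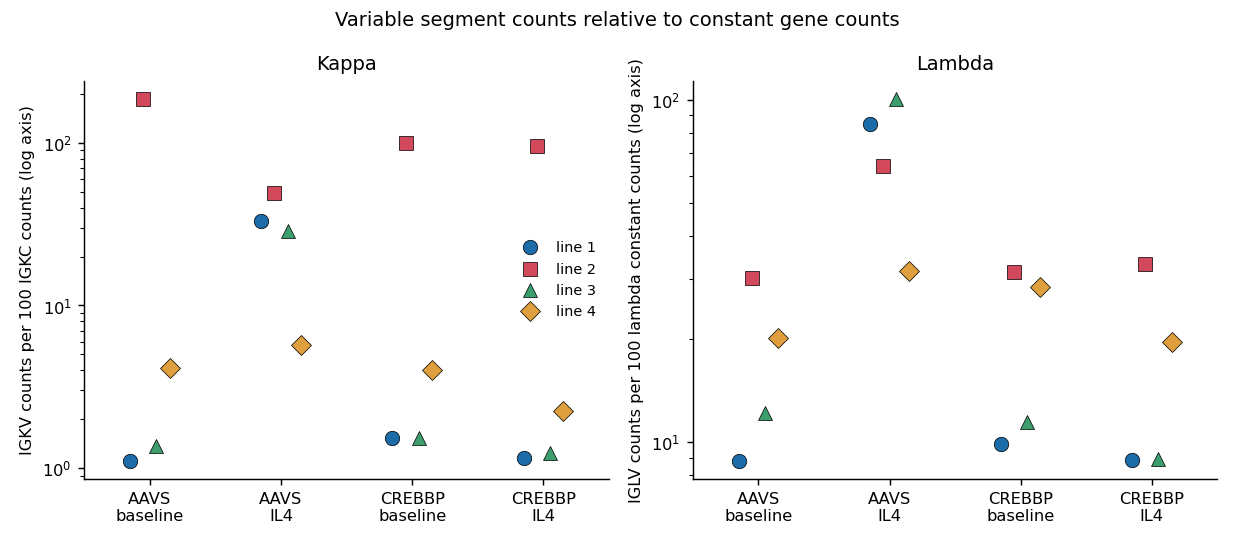
IGKV counts per 100 IGKC counts and IGLV counts per 100 lambda constant counts (IGLC1, IGLC2, IGLC3, IGLC7 and IGLL5) in the 16 libraries, on log axes with 1 point per line. The kappa ratio of lines 1 and 3 was 33.1 and 28.8 in AAVS IL4 and 1.10 to 1.54 in their other libraries, and line 2 has only 24 to 35 IGKC counts behind its kappa ratio outside AAVS IL4.

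The design was used here to ask how light chain genes respond to IL4 and whether targeting CREBBP alters that response. Genes were tested by edgeR's quasi-likelihood test with Benjamini-Hochberg adjustment over all genes kept by the filter, with the line as block. In the AAVS pools 6 of the 9 genes were tested and 0 passed an adjusted p of 0.05, where 2.4% of all 20310 genes tested did. An unadjusted p under 0.05 was found for 4 of the 6 and for 3257 of all 20310 genes. DESeq2 called 3 of the 6 (IGKC, IGLC1 and IGLC3) and 2062 of all genes. IGKC with IL4 was at 1704, 12.8, 2686 and 614 CPM in lines 1 to 4, above the baseline of the same line in 4 of 4, and line 4 moved least. Its fitted log2 fold change was 1.69 (SE 0.57, adjusted p = 0.231). IGLC3 was at 1.32, 0.0490, 0.821 and 0.687 CPM at baseline and at 69.8, 1.06, 106 and 1.36 CPM with IL4. It was higher in 4 of 4 lines, in line 2 at 36 counts against 2. The log2 fold change was 4.74 (SE 1.10, adjusted p = 0.0990), and a call depended on the lines included. Without lines 1, 2, 3 and 4 in turn, the change was 4.05, 4.78, 3.59 and 5.95, with an adjusted p of 0.430, 0.0975, 0.183 and 0.0207.

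IGLC1 with IL4 was at 82.1, 0.589, 146 and 6.45 CPM, above baseline in lines 1, 3 and 4 and just below it in line 2, with a log2 fold change of 1.57 (SE 0.52, adjusted p = 0.229). IGLC2 was at 146, 157, 259 and 2.28 CPM. It was above baseline in the 3 kappa lines and lower in line 2, where it held 310 CPM before, and its fitted change of 3.08 had a wide error (SE 1.57, adjusted p = 0.379). IGLL5 was near its baseline, at 57.4, 0.943, 47.8 and 31.3 CPM (log2 fold change -0.20, SE 0.18, adjusted p = 0.576), although it shares its last exon with IGLC1. With the 5 lambda genes summed to 1 feature the log2 fold change was 1.60 (SE 0.60, adjusted p = 0.264). The median over the 6 tested genes was 1.63, against 0.01 for all genes.

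VPREB3 was the gene of the group with the lowest fitted change under IL4 in AAVS pools. It was at 114, 84.6, 62.0 and 89.3 CPM at baseline and at 86.1, 16.9, 28.9 and 84.4 CPM with IL4, lower in 4 of 4 lines but by little in line 4. The log2 fold change was -1.03 (SE 0.37, adjusted p = 0.255), and it passed the threshold only without the low-count filter (adjusted p = 0.0411). In the CREBBP pools VPREB3 was at 117, 23.9, 75.1 and 88.4 CPM at baseline and at 81.4, 28.0, 58.4 and 80.3 CPM with IL4. Line 2 of the CREBBP pools was therefore at a low level before IL4 as well.

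In the CREBBP pools no light chain gene differed detectably between IL4 and baseline. Of 6 tested, 0 passed the threshold in edgeR's test and 0 had an unadjusted p under 0.05, where 0% of 18282 genes passed, 502 had an unadjusted p under 0.05 and DESeq2 called 1 gene, not a light chain gene. IGKC was at 1007, 0.596, 901 and 554 CPM with IL4, below its baseline in 3 of 4 lines and above it in line 4 (log2 fold change -0.16, SE 0.19, adjusted p = 0.931). IGLC2 was at 6.90, 166, 5.73 and 1.18 CPM (-0.22, SE 0.24, adjusted p = 0.925) and IGLC1 at 16.7, 0.0497, 13.2 and 2.86 CPM (-0.16, SE 0.28, adjusted p = 0.948). IGLC3, at 1.84, 0.274, 2.14 and 0.273 CPM before and 1.71, 0.0248, 2.67 and 0.694 CPM after IL4, had the widest error (-0.01, SE 0.50). The fitted changes of the 6 genes lay between -0.22 and -0.01, with a median of -0.16 against -0.04 for all genes.

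At baseline, CREBBP and AAVS pools did not differ detectably in any light chain gene, with 0 of 6 called where 0% of 18936 genes were by edgeR, 1 of 6 at an unadjusted p under 0.05 (2422 of all genes) and 0 of 6 called by DESeq2, which called 511 genes. IGKC was higher in the CREBBP pool of 4 of 4 lines, with a log2 fold change of 0.46 (SE 0.20, adjusted p = 0.379). IGLC2 had a log2 fold change of 0.66 (SE 0.36, adjusted p = 0.467), higher in lines 1 and 3 and lower in lines 2 and 4. IGLL5 was at 77.0, 2.71, 67.9 and 17.8 CPM in CREBBP baseline, above the AAVS pool in 3 of 4 lines (0.34, SE 0.30, adjusted p = 0.663). The changes of IGLC1, IGLC3 and VPREB3 were -0.37, 0.70 and -0.25 with standard errors of 0.33, 0.63 and 0.32.

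With IL4, the lambda genes IGLC1 and IGLC3 were lower in CREBBP than in AAVS pools. They were 2 of the 6 genes tested, where 4.39% of 19581 genes were called and 3.42% were lower. IGLC1 had a log2 fold change of -2.25 (SE 0.41, adjusted p = 0.0331) and IGLC3 one of -4.04 (SE 0.85, adjusted p = 0.0455), each lower in 4 of 4 lines, although the ranges of the groups overlapped because the lines differ so much. Line 2 is near the floor, with 2 counts in the CREBBP pool against 20 in the AAVS pool for IGLC1 and 1 against 36 for IGLC3. Both calls were lost without line 1 or without line 3, while the direction stayed. Without line 1 the change was -2.31 for IGLC1 (adjusted p = 0.147) and -3.40 for IGLC3 (adjusted p = 0.194), and without line 3 it was -1.84 (adjusted p = 0.133) and -3.44 (adjusted p = 0.193). The number of all genes called also varied, from 25 without line 3 to 2547 without line 2. Both calls were also absent without the line as block (adjusted p = 0.381 and 0.150). IGKC was lower in 4 of 4 lines (-1.31, SE 0.59, adjusted p = 0.210) and IGLC2 in 3 of 4 (-2.49, SE 1.16, adjusted p = 0.224), neither past the threshold. IGLL5, at 78.4, 1.96, 50.0 and 18.7 CPM with IL4 in CREBBP pools, had a change of 0.44 (SE 0.39, adjusted p = 0.490) and VPREB3 one of 0.67 (SE 0.32, adjusted p = 0.230). The sum of the 5 lambda genes had a change of -1.72 (SE 0.48, adjusted p = 0.0831). The median over the 6 genes was -1.78 against -0.05 for all genes. This comparison uses the AAVS IL4 libraries, as does that of IL4 in AAVS pools, and the levels of IGHM and of T-cell markers given above moved with both.

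**Figure D4:**
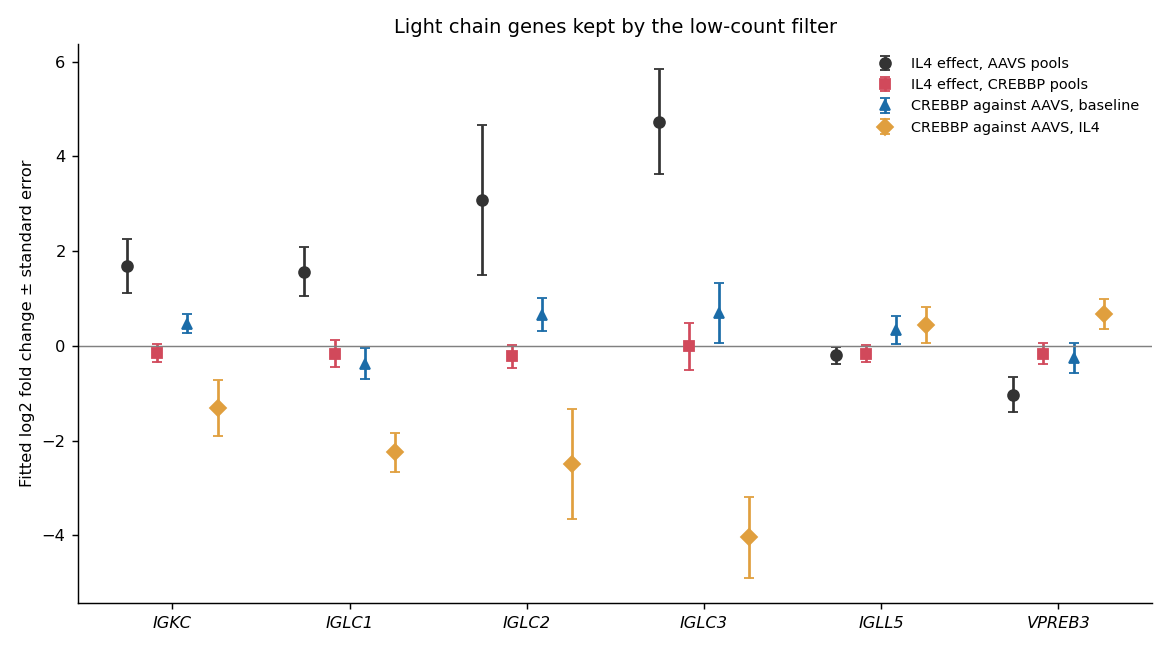
Fitted log2 fold changes with standard errors (edgeR, 4 lines, line as block) for the 6 light chain genes kept by the filter, in 4 comparisons. The IL4 effect in CREBBP pools and the baseline difference between pools lie near 0, while the largest values belong to the comparisons that contain AAVS IL4, led by IGLC3 at 4.74 and -4.04.

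The difference in IL4 response between CREBBP and AAVS pools was tested with all 16 libraries fitted together and every pool given its own baseline. The AAVS and CREBBP pools of a line were separate units in this fit, so their IL4 responses were not paired by line. Of 7 light chain genes tested by edgeR, 0 were called, where 0.638% of 21932 genes were. An unadjusted p under 0.05 was found for 3 of the 7 and for 2927 of all 21932 genes. DESeq2 called 2 of the 7 (IGKC and IGLC3) and 1099 of all genes. IGLC3 had the largest difference, at -4.57 on the log2 scale (SE 1.18, adjusted p = 0.127). Without lines 1, 2, 3 and 4 in turn it was -3.95, -4.47, -3.54 and -6.33, with an adjusted p of 0.731, 0.165, 0.496 and 0.00716. IGKC differed by -1.72 (SE 0.62, adjusted p = 0.269), IGLC1 by -1.68 (SE 0.62, adjusted p = 0.279) and IGLC2 by -3.21 (SE 1.48, adjusted p = 0.378). VPREB3 differed by 0.98 (SE 0.47, adjusted p = 0.403), VPREB1 by 0.77 (SE 1.29, adjusted p = 0.834) and IGLL5 by 0.14 (SE 0.26, adjusted p = 0.846).

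The surrogate light chain genes were at or near 0 throughout. IGLL1 had 1, 0, 3 and 0 counts in lines 1 to 4 of AAVS baseline, 0, 0, 0 and 1 in AAVS IL4 and 0 in all 8 CREBBP libraries, all at or below the floor of 3 counts. VPREB1 had 3, 9, 5 and 19 counts in AAVS baseline, 2, 2, 3 and 12 in AAVS IL4, 8, 2, 1 and 17 in CREBBP baseline and 14, 0, 7 and 17 in CREBBP IL4. In CPM it was highest in line 4 in 3 of 4 groups and did not exceed 0.363. Markers of precursor B cells, the stage at which the surrogate light chain is used, summed to at most 3.25 CPM, with RAG1 at no more than 0.993, RAG2 at no more than 0.0191 and DNTT at no more than 0.0727 CPM.

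Few of the genes that work with the light chain were called. CD79A and CD79B, the signalling chains of the B-cell receptor, were both tested in 5 comparisons and 0 of 2 were called in each by edgeR or DESeq2, with 0 at an unadjusted p under 0.05. Of 10 genes that cut or join segments, 7 or 8 were tested and edgeR called 0. For CREBBP against AAVS pools with IL4, 4 of 7 had an unadjusted p under 0.05, as did 5018 of all 19581 genes. DESeq2 called the end-joining genes PRKDC, XRCC4, XRCC5 and XRCC6 higher there, among 4154 genes called (1538 higher). Of 16 transcription factors of light chain genes, POU2F1 was called lower for IL4 in AAVS pools by DESeq2 but not by edgeR. IRF4, which acts at the kappa and lambda enhancers, was the 1 of the 16 called by edgeR. It was at 49.3 to 362 CPM in AAVS IL4 and 0.0363 to 1.25 CPM elsewhere, with a log2 fold change of 7.77 for IL4 in AAVS pools (SE 0.34, adjusted p = 0.000594), -8.43 for CREBBP against AAVS pools with IL4 (SE 1.07, adjusted p = 0.0125) and -6.63 for the difference in response (SE 0.45, adjusted p = 0.000115). In these comparisons, in this order, 2.4%, 4.39% and 0.638% of all genes tested were called. The filter left IRF4 out for IL4 in CREBBP pools. Its tests rest on the group where it is high and add no support to the levels. Of 9 genes of immunoglobulin folding and secretion, XBP1, the transcription factor of the secretory programme, was the 1 called by edgeR. It was at 68.8 to 315 CPM in AAVS IL4 and 9.77 to 50.2 CPM elsewhere, and lower in CREBBP than in AAVS pools with IL4 (-2.29, SE 0.48, adjusted p = 0.0451). Of the markers, 6 of 8 for B cells outside the germinal centre and 7 of 11 for T cells were called higher with IL4 in AAVS pools. So were 1 each of 6 plasma cell, 6 tested myeloid and 3 tested NK-cell markers, where 2.4% of all 20310 genes tested were called. For IL4 in CREBBP pools the filter kept only 4 of these 8 and 3 of these 11 markers. Calls of markers kept only through AAVS IL4 rest on the group where they are high and add no support to the levels. CD27, of the markers for B cells outside the germinal centre, had a negative change with IL4 in AAVS pools (-1.12, SE 0.40, edgeR adjusted p = 0.253). DESeq2 called CD27 lower. None of the general B-cell, germinal centre, precursor or stromal markers was called there by edgeR, with 1 of 7, 1 of 5, 0 of 3 and 0 of 2 at an unadjusted p under 0.05, and DESeq2 called 1 of them, the germinal centre marker MME, lower.

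The patterns of the light chain genes over the 16 libraries were compared with 17257 other genes by Pearson's correlation of log2(CPM + 1). This is a description, since the libraries share lines and the correlation can reflect the lines or the AAVS IL4 libraries. IGLC3, for example, was at 69.8 and 106 CPM in lines 1 and 3 of AAVS IL4 and at most 2.67 CPM outside that group. IGKC was closest to TCL1A (r = 0.983), IGLC1 to WFS1 (0.95), IGLC2 to OTUD7B (0.970), IGLC3 to TLE1 (0.980) and IGLL5 to PWWP2B (0.969). VPREB3 was closest to DEF8 (0.922), PLD4 (0.893) and SERPINA11 (0.873), and VPREB1, at a few counts per library, to COQ10A (0.890). Among the members, IGKC went with IGLL5 (r = 0.936) and IGLC1 (0.823) and against IGLC2 (-0.598), and IGLC7 was closest to IGLC3 (0.751).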

How the data were processed

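The authors used cutadapt 2.3 for trimming, STAR 2.7.8a for mapping to GRCh38 and RSEM 1.3.3 for gene counts, per the paper and the submitters' processing notes (FastQC 0.11.8 and MultiQC 1.7 for quality). The deposited values are RSEM expected counts per gene, deposited as unnormalized whole numbers and used as they stand. Read strand in counting was not given in the sources used here.

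From these counts, CPM was computed on library totals (19649735 to 61981976), and precision follows depth and counting error. Genes were filtered with filterByExpr, scaled by TMM and tested with edgeR 4.0.16 (R 4.3.3, limma 3.58.1), line as block (pool for the difference in IL4 response), Benjamini-Hochberg adjusted, threshold 0.05. Lines pair libraries because a number marks 1 cell line. Deviations from group means correlated within lines 1 to 4 with medians of 0.564, 0.693, 0.284 and 0.664 (lowest -0.151, line 3). Replicates were not copies, with a chi-square per degree of freedom of at least 98.7. Alternatives were DESeq2 1.42.0 (Wald test, size factors), no filter, a minimum of 10 counts per library, no replicate block, lambda genes summed, each line left out, and other denominators of the kappa share. Kappa shares used Python 3.11.15 and scipy 1.17.1 with exact sign-flip tests. Scripts were tested on simulated data.

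The 9 genes, the pathway and marker lists and the tests were chosen with earlier results of these data known. All 9 genes are described. Pathway genes are named by smallest p, V segments by the highest count in a library, and similar genes as up to 3 with the highest r among genes kept by the filter outside the immunoglobulin loci, for members with at least 10 counts in 4 libraries. Positions and exon sequences are from GENCODE 44 and the GRCh38 genome.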

Additional observations from a re-analysis of the deposited data

Results flagged for a closer look

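In 11 of 36 gene and group combinations of 4 lines, 1 line lay far from the others on the scale of log2(CPM + 0.1). The rule flags about 1 in 20 sets by chance when the 4 values are replicates, but here they are different cell lines. The share of all genes it flags was not computed, so the number of flags is not a result about light chain genes. IGKC was lowest in line 2 at 0.858 CPM in AAVS baseline, 0.925 CPM in CREBBP baseline and 0.596 CPM in CREBBP IL4. IGLL5 was lowest in line 2 as well, at 1.35 CPM in AAVS baseline and 0.943 CPM in AAVS IL4. In AAVS IL4, line 4 was lowest for IGLC2 at 2.28 CPM and for IGLC7 at 0.0629 CPM. The other 4 rest on 0 to 3 counts: IGLC7 at 0 CPM in line 2 of AAVS baseline, at 0.0432 CPM in line 3 of CREBBP baseline and at 0.0161 CPM in line 4 of CREBBP IL4, and IGLL1 at 0.0210 CPM in line 4 of AAVS IL4.

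IGKC was higher in CREBBP than in AAVS pools in 4 of 4 lines at baseline and lower in 4 of 4 lines with IL4. The difference itself is the difference in IL4 response between the pools, at -1.72 on the log2 scale, with an edgeR adjusted p of 0.269 and a range from 0.000886 to 0.999 over the alternatives.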

How the results depend on the processing

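For IL4 in AAVS pools, 488 genes were called, against 1851 with no low-count filter, 25 with at least 10 counts in every library, 2062 with DESeq2 and 64 to 1035 with a line left out. The light chain genes called there were 0, against 5 with no filter, 3 with DESeq2 and 0 to 2 with a line left out. For IL4 in CREBBP pools, 0 became 40 with no filter and 1 with DESeq2. For CREBBP against AAVS pools at baseline, 0 became 586 with no filter, 511 with DESeq2 and 0 to 515 with a line left out. With IL4, 859 became 3466 with no filter, 4154 with DESeq2, 540 with no replicate block and 25 to 2547 with a line left out, and the 2 light chain genes became 5 with no filter, 0 with at least 10 counts in every library (which removes both), 0 with no replicate block, 0 with lambda genes summed and 0 to 3 with a line left out. For the difference in IL4 response, 140 became 1191 with no filter, 69 with at least 10 counts, 1099 with DESeq2, 2 with no replicate block and 16 to 264 with a line left out, and the 0 light chain genes became 5 with no filter, 2 with DESeq2 and 0 to 1 with a line left out. Where no construction shows the cause, the cause was not tested.

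For single genes, 240 alternative values kept their direction and side of the threshold, 18 passed it, 6 no longer did, and 15 uncalled values changed sign. For IL4 in CREBBP pools these were IGLC2 (0.043) and IGLC3 (0.033) with no replicate block, IGLC3 (0.011) with DESeq2 size factors and, with a line left out, VPREB3 (-0.44 to 0.0058), IGLC2 (-0.35 to 0.091) and IGLL5 (-0.22 to 0.039), each positive without line 3, and IGLC3 (-0.46 to 0.37, positive without line 1, at 0.051, and without line 2). For CREBBP against AAVS pools at baseline they were VPREB3 (-0.53 to 0.23, positive without line 2) and, with no replicate block, IGLC1 (0.030) and IGLC2 (-0.30). For the difference in IL4 response, IGLL5 was -0.041 with at least 10 counts, -0.034 with no replicate block and -0.073 to 0.28 with a line left out, negative without line 2 and, at -0.0099, without line 4. The replicate block changed no other call.

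Mean differences of the kappa share ranged, with a line left out, from -9.05 to -2.95 and -0.0852 to 0.220 points for IL4 in AAVS and CREBBP pools, and from 0.228 to 2.13 and 4.75 to 10.9 points for CREBBP against AAVS pools at baseline and with IL4, within the spread between lines. Counts of 0 to 19 for IGLL1 and VPREB1 limit any statement on them. Comparisons with AAVS IL4 share its 4 libraries.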
